A study of Caenorhabditis elegans with 2 samples.

Results

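Basement membrane components were followed on arrays of whole Caenorhabditis elegans raised with or without amide single-walled carbon nanotubes (a-SWCNT). The group was set by gene name as 10 genes, and the platform annotation gave them 18 probe sets that each map to a single gene, of 22548 worm probe sets and 17118 named genes in all. They are the type IV collagen genes emb-9 and let-2, the laminin genes epi-1, lam-3, lam-1 and lam-2, the nidogen gene nid-1, the perlecan gene unc-52, the SPARC gene ost-1 and the collagen XVIII gene cle-1.

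Basement membranes are thin sheets of extracellular matrix that wrap the gonad, intestine, pharynx and muscles of the worm. Laminin trimers assemble on the cell surface, type IV collagen trimers form a second, cross-linked network that gives the sheet its tensile strength, and nidogen and perlecan associate with both. Much of the type IV collagen of the worm is made in body wall muscle and travels through the body cavity to other tissues, and its loss in embryos is lethal. In vertebrates SPARC is a collagen-binding protein of the matrix.

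Both groups were N2, the wild-type strain, kept at 13 °C on agar plates and fed the bacterium OP50. Synchronised L1 larvae were grown for 48 hr at 22 °C without nanotubes (control) or with nanotubes at 500 μg/mL, and both samples carry the stage label L4. There were 2 arrays, 1 per group, so differences carry neither replicates nor p-values, and the spread between cultures is unknown. The number of arrays limits the precision.

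Each value is a MAS5 signal, the software's summary of the brightness of the probes for a transcript in arbitrary units. The trimmed mean signal was 211 for control worms but 84.2 for a-SWCNT worms, and the a-SWCNT signals were multiplied by 2.50 to bring both to the same trimmed mean. All signals given are after this step. A signal at or above 56.7, the pooled median of worm probe sets, counted as measured, and lower signals were raised to that floor before a ratio was taken. Ratios are a-SWCNT over control on the log2 scale, so that -1 is 2-fold lower. Among the manufacturer's control probe sets, the ratio of the 3′ to the 5′ end, a sign of RNA integrity, was 1.13 in control worms and 0.899 with a-SWCNT for actin, 0.779 and 0.687 for GAPDH, 2.41 and 1.96 for catalase, and 14.3 and 23.1 for ubiquitin. Markers of all 7 tissues examined were measured on both arrays, although lag-2, lim-7 and ehn-3 of the somatic gonad and ceh-22 of the pharynx were below the floor on both.

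Most basement membrane readings differed by less than 2-fold between the arrays, and larger differences were read by single probe sets of emb-9 and ost-1. Of the 18 probe sets, 12 were measured, all of them on both arrays, and they cover 8 of the 10 genes. At least 2-fold lower were 2 of these 12 probe sets, against 4.43% of all measured probe sets, and at least 2-fold higher were 0, against 1.36%. By gene, with probe sets averaged, 1 of 8 was at least 2-fold lower and 0 higher, against 2.88% and 1.42% of all measured genes. The median log2 ratio of the 8 genes was -0.26, while that of all 9382 measured genes was -0.02. Below 0 lay 7 of the 8 genes, against 52.2% of all genes, and 9 of the 12 probe sets, against 53% of all probe sets. In bulk RNA of whole worms, fewer cells of a type and less RNA per cell cannot be told apart.

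**Figure D1:**
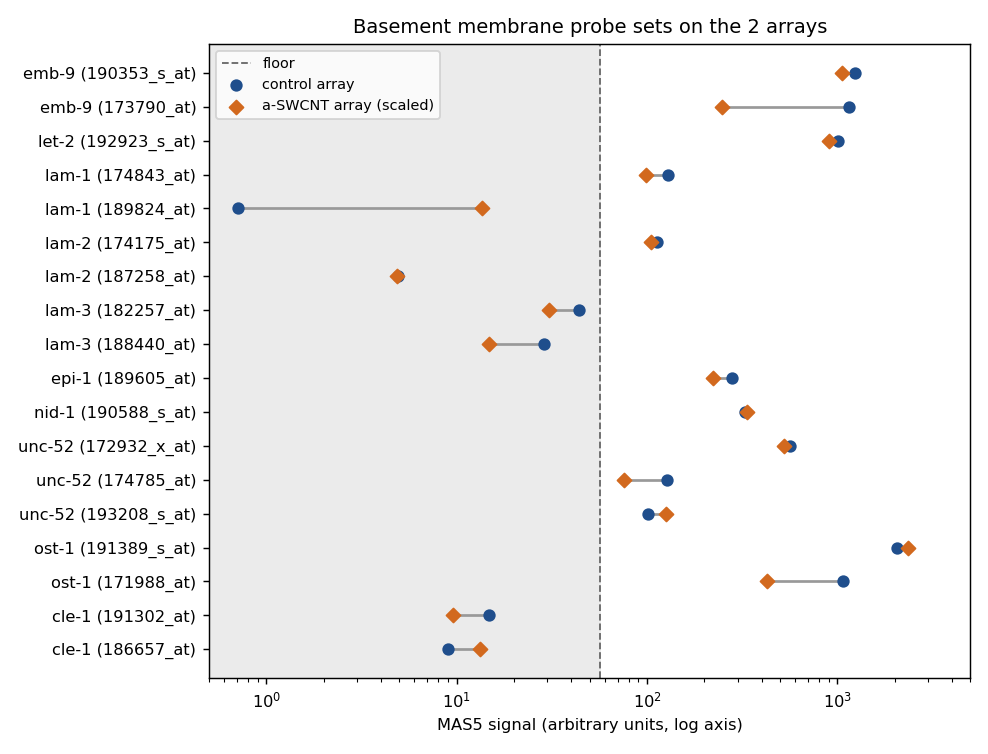
Signal of each of the 18 single-gene probe sets for control worms (circles) and, after scaling, a-SWCNT worms (diamonds), on a log axis in arbitrary units; the dashed line is the floor of 56.7 and the grey area below it holds signals not counted as measured. Long bars above the floor belong to 173790_at of emb-9 and 171988_at of ost-1, and the long bar of lam-1 lies wholly below the floor. Positions of different probe sets cannot be read as relative abundance of their genes.

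Among the type IV collagen genes, 1 probe set gave the largest difference of the whole group and the other 2 gave small ones. The gene emb-9 encodes one of the chains of the collagen trimer and is read by a pair of probe sets. Probe set 173790_at had a signal of 1147 in control worms and 247 with a-SWCNT, 4.64-fold lower (-2.21). It ranked as number 14 from the bottom of 10528 probe sets measured on both arrays. Probe set 190353_s_at, with 1235 in control worms and 1056 with a-SWCNT, was only 1.17-fold lower (-0.23), and 34.3% of probe sets were at or below that ratio. The readings of the same gene therefore lay 1.99 log2 units apart. Among 1536 genes with at least 2 probe sets measured on both arrays the median range was 0.46 and the 95th percentile 1.42, and only 6 genes, emb-9 included, had a range as wide as this.

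The gene let-2 encodes the partner chain of EMB-9 in the same trimer. Its single probe set, 192923_s_at, had 1004 in control worms and 907 with a-SWCNT, 1.11-fold lower (-0.15). This ratio is close to that of the emb-9 probe set of the same identifier type (-0.23), and far from the other emb-9 probe set. Neither 190353_s_at nor 192923_s_at changed sign in any scaling tried, and their ratios ran from -0.50 to -0.10 and from -0.42 to -0.02.

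Laminin is a trimer of an alpha, a beta and a gamma subunit. Of the alternative alpha subunits, epi-1, which serves most tissues outside the pharynx, had a signal of 279 in control worms and 221 with a-SWCNT, 1.26-fold lower (-0.34). The other alpha subunit gene, lam-3, whose product is prominent in the pharynx, was below the floor on both arrays, with 43.7 and 30.5 in 182257_at and 28.8 and 14.9 in 188440_at for control and a-SWCNT worms. No ratio is given for lam-3.

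The beta subunit gene lam-1 had 129 in control worms and 98.6 with a-SWCNT in 174843_at, 1.31-fold lower (-0.39). The gamma subunit gene lam-2 had 113 and 105 in 174175_at, 1.08-fold lower (-0.11). The further probe set of each gene, 189824_at for lam-1 (0.71 and 13.6) and 187258_at for lam-2 (4.93 and 4.85), was far below the floor on both arrays. The 3 laminin genes measured thus lay between -0.39 and -0.11, and the sign for lam-2 changed under 3 of the alternative scalings, which put it between -0.39 and 0.03.

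Nidogen, which binds laminin and type IV collagen, was read by a single probe set of nid-1. Its signal was 329 in control worms and 336 with a-SWCNT, a log2 ratio of 0.03 whose sign changed with equal hybridisation controls. It was the only one of the 8 measured genes above 0.

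Perlecan, the product of unc-52, anchors body wall muscle to the hypodermis through the basement membrane, and its transcript is extensively alternatively spliced. Its 3 probe sets did not share a direction. Probe set 172932_x_at had 563 in control worms and 527 with a-SWCNT (-0.10, a sign that changed with equal 75th percentiles), and 193208_s_at had 102 and 126 (0.30). Probe set 174785_at had 128 in control worms and 75.5 with a-SWCNT, 1.69-fold lower (-0.76), or -1.03 and so past 2-fold with equal hybridisation controls. The range of 1.06 log2 units was reached or exceeded by 14.2% of genes with 2 or more probe sets measured. A range over 3 probe sets tends to be wider than one over 2, so this share is not like for like. Which transcripts of unc-52 each probe set reads is not given in the sources used here, and the mean of -0.18 describes no single one of them.

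The SPARC gene ost-1 repeated the split seen in emb-9. Probe set 171988_at had 1069 in control worms and 427 with a-SWCNT, 2.51-fold lower (-1.33), and was at position 158 from the bottom of 10528. Probe set 191389_s_at, with 2049 in control worms and 2361 with a-SWCNT, was 1.15-fold higher (0.20), a sign that changed with equal hybridisation controls. The probe sets lay 1.53 log2 units apart, a range that 3.19% of such genes reached.

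The collagen XVIII gene cle-1, which acts in axon guidance and at synapses of the worm, was below the floor in both of its single-gene probe sets. The signals were 14.8 and 9.57 in 191302_at and 9.03 and 13.3 in 186657_at for control and a-SWCNT worms. No ratio is given for cle-1 from these probe sets. A further cle-1 probe set, left out of the group because it is listed under 2 gene identifiers, was above the floor on both arrays and is described under other observations.

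The low readings of emb-9 and ost-1 came from the same kind of probe set. Affymetrix identifiers end in _at where all probes are unique to the target, and carry a letter such as s or x where probes are shared with similar transcripts. The numbers on this array run from 171720 to 194267, and for 2068 of the 4126 probe sets up to 175845 (called low-numbered here) the platform annotation lists a source sequence, against 84 of the rest. Probe sets that are low-numbered and carry no letter were shifted downward across the whole array. The median log2 ratio of the 1146 measured on both arrays was -0.43, with quartiles at -0.80 and -0.11, whereas the 4968 higher-numbered ones without a letter had a median of 0.03. At least 2-fold lower were 14.4% of the former, against 3.12% of all other probe sets.

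The shift was also present within genes. In 773 genes that had a low-numbered probe set without a letter and another measured probe set, the median difference was -0.47 log2 units, and the former was the lower one in 79.2% of them. It was at least 1 log2 unit lower in 152 of these genes and at least 1 log2 unit higher in 4. In 394 genes with a higher-numbered probe set without a letter and one with a letter, the median difference, the former minus the latter, was 0.07.

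Of the 12 measured basement membrane probe sets, 5 were of this low-numbered type without a letter: 173790_at of emb-9, 171988_at of ost-1, 174785_at of unc-52, 174843_at of lam-1 and 174175_at of lam-2. All 5 were below 0, at a median of -0.76, where 79.8% of the type were below 0. The 7 measured probe sets of other types had a median of -0.10, with 4 below and 3 above 0, where 49.2% of all such probe sets were below 0. None (0) of the 7 was 2-fold different, where 3.12% of such probe sets were at least 2-fold lower and 1.55% higher. The values for lam-1 and lam-2 rest on the shifted type alone, and both lay above its median, with lam-1 0.04 and lam-2 0.32 log2 units above. The ratio of unc-52 in 174785_at was 0.33 log2 units below that median (-0.33), ost-1 was at -0.89 and emb-9 at -1.78 relative to it. Only 2 of the 1146 probe sets of the type, emb-9 included, had a ratio as low as that of emb-9, and 61 had one as low as that of ost-1.

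**Figure D2:**
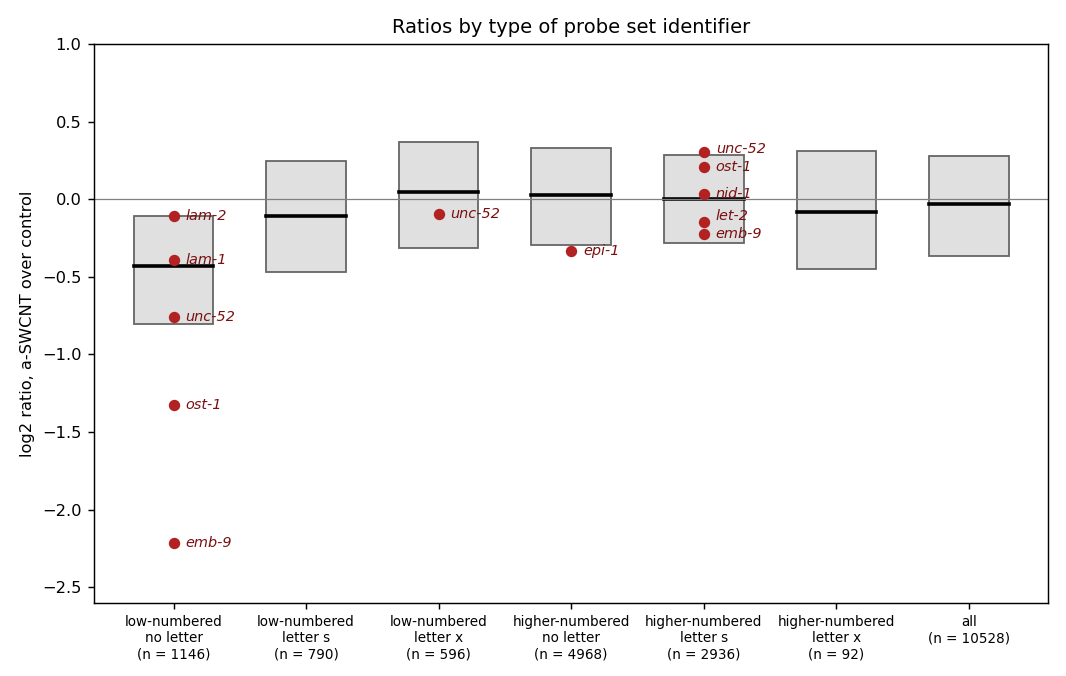
Log2 ratio of a-SWCNT over control for the 12 measured basement membrane probe sets (red points, named) beside all probe sets measured on both arrays, by number range and letter of the identifier; boxes span the quartiles and thick lines mark medians, with n under each type. The low-numbered type without a letter has a median of -0.43 and holds the lowest readings of the group, those of emb-9 (-2.21), ost-1 (-1.33), unc-52 (-0.76) and lam-1 (-0.39).

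With each type centred on the same median, emb-9 stayed at -1.81 in 173790_at and at -1.04 as a gene mean, whereas ost-1 moved to -0.92 in 171988_at and passed under 2-fold. The laminin genes lam-1 (0.01) and lam-2 (0.29) were then above 0. The median of the 8 genes became -0.13. Without the low-numbered probe sets that have no letter, 6 of the genes were still measured, 3 were below 0 and none (0) was 2-fold different, at a median of -0.057. The 2-fold lower call of emb-9 thus rested on 1 probe set, 173790_at. The part that probe set type has in the lower readings was not tested beyond these values.

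**Figure D3:**
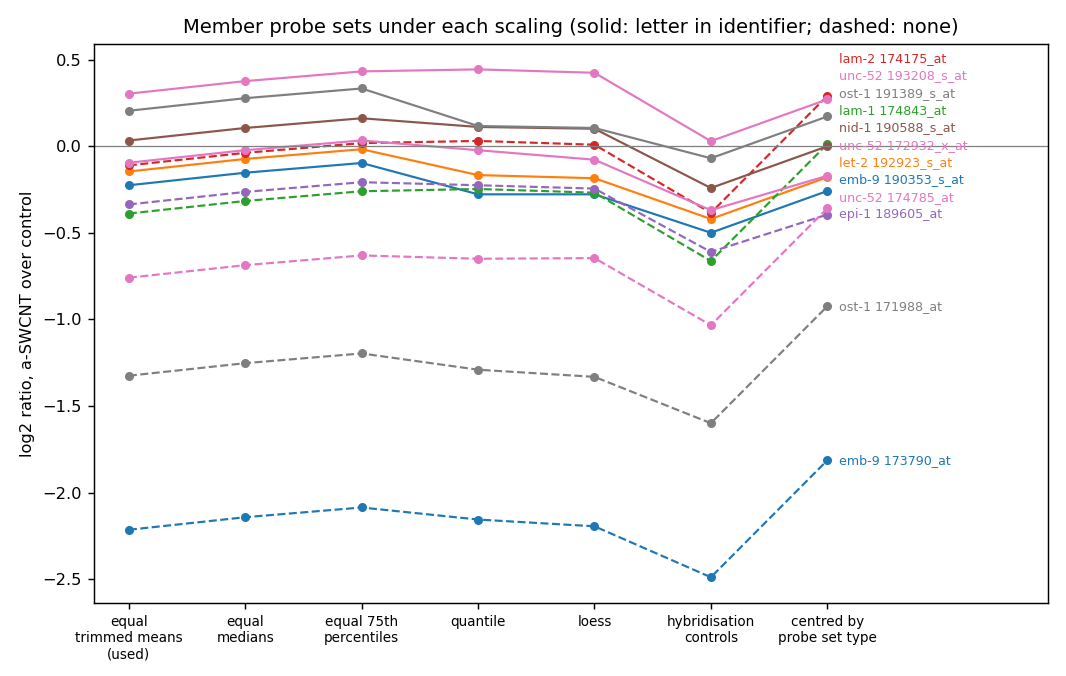
Log2 ratio of each of the 12 measured basement membrane probe sets under 6 ways of bringing the arrays to a common level and after centring by probe set type; colours stand for genes, solid lines for identifiers with a letter and dashed lines for those without. The probe set 173790_at of emb-9 stays between -2.49 and -1.81, and no other probe set is below -1.60 in these settings.

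The scaling sets the level against which all these ratios are read. Under the 5 other ways of scaling, the median of all measured genes lay between -0.28 (equal hybridisation controls) and 0.09 (equal 75th percentiles), and the median of the basement membrane genes lay between -0.53 and -0.13. The difference between these medians, -0.24 as scaled here, ranged from -0.26 to -0.22. Multiplying an array by a constant shifts both medians alike, so such scalings could change this difference little. The difference was -0.10 centred by probe set type and -0.066 without low-numbered probe sets that carry no letter. With the brightest probe set of each gene it was -0.13. Of all genes, 270 were 2-fold lower or more and 133 higher as scaled here, but 167 and 217 with equal 75th percentiles and 679 and 52 with equal hybridisation controls.

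Genes that work with basement membranes, or in making collagen and sugar chains more widely, were grouped into 7 further lists. None of these lists was at least 2-fold different in more than 1 gene. Of all measured genes, 2.88% were at least 2-fold lower and 1.42% higher, so lists of this size would hold few such genes anyway. Receptors and surface proteoglycans that bind the matrix were measured for 8 of 12 genes. Of these, 7 were below and 1 above 0, at a median of -0.28, and 0 were 2-fold different. The lowest was the dystroglycan gene dgn-1 (-0.56), whose product binds laminin in vertebrates. It had 154 in control worms and 93.0 with a-SWCNT in the low-numbered 174786_at, which carries no letter (-0.73). In 187933_s_at it had 105 and 80.0 (-0.39). The highest was the integrin alpha subunit gene ina-1 (0.12), whose probe sets went apart, from 95.1 to 71.2 in the low-numbered 173833_at and from 237 to 374 in 192422_s_at. Centred by probe set type, the median of this list was 0.01.

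The proteins that link integrins to the muscle cytoskeleton were measured for all 9 genes, with 3 below and 6 above 0, at a median of 0.14 whose sign changed with equal hybridisation controls and without letter probe sets. They ran from the talin gene tln-1 (-0.24) to unc-95 (0.50), which encodes a LIM-domain protein of muscle attachments. The unc-95 signal was 238 in control worms and 338 with a-SWCNT. The tln-1 value averages probe sets from -0.67 to 0.28. Of these, only 194260_x_at (193 and 122, -0.67) was measured on both arrays. The count at 2-fold was 0 in both directions.

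Other secreted matrix proteins were measured for 7 of 12 genes, of which 5 were above 0, at a median of 0.24. The F-spondin gene spon-1 was highest (0.50, from 105 to 150). The papilin gene mig-6, needed for the migration of the leading cells of the gonad, was lowest (-0.80). The sign turned in 190057_s_at, its probe set with the highest signal summed over both arrays. The gene showed the same split as emb-9 and ost-1. Its low-numbered probe set 173049_at had 774 in control worms and 172 with a-SWCNT, 4.50-fold lower (-2.17), while 190057_s_at had 640 and 750 (0.23) and 190063_at had 151 and 109 (-0.47).

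Metalloproteases and inhibitors that remodel the matrix were measured for 8 of 12 genes, with 7 below 0 and a median of -0.24. The matrix metalloprotease gene zmp-4 was at least 2-fold lower, with 831 in control worms and 414 with a-SWCNT (2.01-fold), read by a higher-numbered probe set. This value sits at the threshold and lay between -1.28 and -0.88 over the scalings. The highest was zmp-3 (0.01), a sign that changed between scalings.

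Enzymes and factors of collagen modification and secretion, a list not limited to type IV collagen, were measured for 12 of 14 genes. Of these, 5 were below and 7 above 0, at a median of 0.05 whose sign changed between scalings. The gene let-268 encodes the lysyl hydroxylase that modifies type IV collagen and is needed for its secretion in the worm. It was the only gene of the 7 lists that was at least 2-fold higher, with 114 in control worms and 273 with a-SWCNT (2.39-fold, 1.26) in a higher-numbered probe set, but 0.98 with equal hybridisation controls and 0.47 with the floor at the 75th percentile, both under 2-fold. The lowest was tmem-131 (-0.74), whose product recruits collagen for secretion, with probe sets at -1.21, -0.83 and -0.17.

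Genes for the synthesis of heparan sulfate and related sugar chains, which proteoglycans carry, were also listed, and 12 of 16 were measured. Of these 8 were below and 4 above 0, at a median of -0.17 (0.08 with the floor at the 75th percentile) and with 0 at 2-fold. They ran from the sulfotransferase gene hst-1 (-0.83, in the low-numbered 173864_at, from 246 to 138) to sqv-4 (0.56), which encodes a UDP-glucose dehydrogenase and had 676 and 999. Factors that set unc-52 splicing were measured for all 4 genes, at a median of 0.01 whose sign changed between scalings, from the RNA-binding factor gene mec-8 (-0.30) to smu-1 (0.33).

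**Figure D4:**
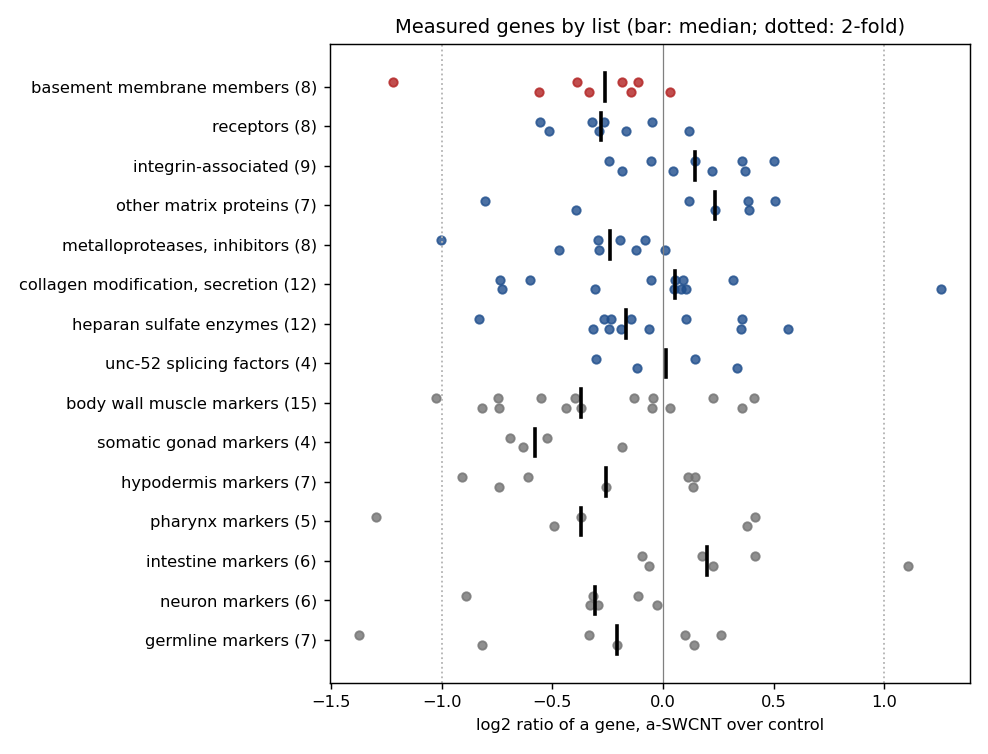
Log2 ratio of each measured gene, a-SWCNT over control, in the basement membrane group (red), 7 lists of associated genes (blue) and 7 lists of tissue markers (grey); black bars are medians, dotted lines mark 2-fold and the number of genes is in brackets. The basement membrane genes lie between -1.22 and 0.03, with emb-9 alone of them past 2-fold, and the highest values of the other lists are those of let-268 (1.26) and the intestinal marker vha-6 (1.11).

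Markers of tissues that make or border basement membranes also differed between the arrays. Body wall muscle markers, from the main source of type IV collagen, were measured for all 15 genes, with 11 below and 4 above 0 at a median of -0.37. That median was -0.10 when centred by probe set type, but -0.35 without low-numbered probe sets that carry no letter. The summed signal of these markers was 65921 in control worms and 53519 with a-SWCNT. The myosin gene unc-54 was lowest (-1.03, from 3796 to 1865, but -0.90 with equal 75th percentiles and also under 2-fold when medians were made equal), and the myosin chaperone gene unc-45 was highest (0.41). Somatic gonad markers were below 0 in 4 of 4 measured genes (4 of 8 listed), at a median of -0.58, from the forkhead gene fkh-6 (-0.69) to the POU homeobox gene ceh-18 (-0.19, or 0.09 from probe sets measured on both arrays), with summed signals of 621 and 464.

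Hypodermal markers had a median of -0.26 over 7 genes, 4 of them below 0, but of -0.61 without letter probe sets. They ran from che-14 (-0.91) to wrt-10 (0.14), with summed signals of 5422 and 4823. Pharyngeal markers had a median of -0.37 over 5 measured genes, 3 of them below 0, but of 0.38 without letter probe sets and just above 0 with the floor at the 75th percentile. They ran from the myosin gene myo-2 (-1.30, from 241 to 97.96, the only one at 2-fold, but -0.29 with the higher floor) to the troponin gene tnt-4 (0.42), with summed signals of 2747 and 2642. Intestinal markers had a median of 0.20 (-0.07 with equal hybridisation controls) over 6 genes, 4 of them above 0, from ifb-2 (-0.10) to vha-6 (1.11, from 1160 to 2499, but 0.83 with equal hybridisation controls), with summed signals of 8960 and 10768. Of the neuronal markers, 6 of 6 were below 0 as gene means, with a median of -0.31 (-0.12 with the brightest probe set of each gene). They ran from the syntaxin gene unc-64 (-0.89) to sng-1 (-0.03), with summed signals of 5491 and 4799. The probe sets of snb-1 lay at -0.39 and 0.16. Germline markers had a median of -0.21 over 7 genes, 4 of them below 0, from gld-1 (-1.38) to glp-1 (0.26), with summed signals of 3747 and 2892. This median was -0.69 without letter probe sets and -0.055 without low-numbered probe sets that carry no letter. The value of gld-1 came from 174247_at alone, a low-numbered probe set without a letter, and was -0.97 when centred by type. The signs for ina-1, wrt-10, ifb-2, sng-1 and glp-1 changed between scalings. The part that a different make-up of tissues has in the basement membrane values was not tested.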

How the data were processed

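Per the labels' protocols, total RNA of whole worms was extracted with Trizol and 6 μg of it was made into biotin-labelled cRNA for Affymetrix arrays. The deposited values are 1 linear signal intensity per probe set, made with MAS5 per the submitters' processing notes. Neither its version nor its scaling target is given in the sources used here. The 22625 probe sets of an array include 77 controls of the manufacturer.

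The arrays were brought to the same trimmed mean (2% removed at each end), signals were raised to the floor, and the log2 ratio was taken with Python 3.11.15 and pandas 2.3.3. At or above the floor were 50.5% of worm probe sets for control and 49.5% for a-SWCNT worms. A gene's value is the mean log2 ratio of its single-gene probe sets measured on at least 1 array. Of 20766 single-gene probe sets, 20701 were found by gene identifier in the WBcel235 gene table. No test was run, because there was 1 array per group. The calculation was tested on simulated data. No array annotation names a genome build, so no coordinates are given.

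The basement membrane genes and all lists were chosen with earlier results of these data known. Named are all single-gene probe sets of the group and, of each other list, the highest and the lowest gene measured on both arrays and each gene at least 2-fold different. Of the listed genes, phy-4, hst-3.2 and sth-1 had no single-gene probe set. The alternatives were equal medians, equal 75th percentiles, quantile normalisation, loess centring (span 0.3), 18 hybridisation controls, no scaling, no floor or one at another percentile (25th, 75th), calls at 1.5-fold or 3-fold, and other probe set rules. The brightest probe set of a gene is the measured one with the highest signal summed over both arrays. Grouping by probe set type, and use of probe sets listed under 2 identifiers, were added after the data were seen.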

Additional observations from a re-analysis of the deposited data

How the results depend on the processing

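The median log2 ratio of the basement membrane genes (-0.26) stayed below 0 under all 15 alternatives that gave one. It was -1.47 with signals as deposited, -0.53 with equal hybridisation controls, -0.57 without probe sets that carry a letter and -0.057 without low-numbered probe sets that carry none. The count of genes at least 2-fold lower (1) became 8 as deposited, 2 without letter probe sets, and 0 at a 3-fold threshold, with the brightest probe set of each gene, or without low-numbered probe sets that carry no letter. The count of probe sets at least 2-fold lower (2) became 12 as deposited, 3 with equal hybridisation controls (174785_at of unc-52 added), 1 at 3-fold, 1 centred by probe set type and 0 without the low-numbered type. With no floor, 1 probe set and 1 gene (lam-1, at 1.93, from the dim 189824_at) were at least 2-fold higher, against 0. In the signals as deposited, where bright probe sets are shifted by -1.32, the sign turned for nid-1 (-1.29), 191389_s_at of ost-1 (-1.12), 193208_s_at of unc-52 (-1.02), glp-1 (-1.06), ina-1 (-1.06), let-268 (-0.065), vha-6 (-0.22), wrt-10 (-1.18), zmp-3 (-1.31), smu-1 (-0.99), spon-1 (-0.82), sqv-4 (-0.76), tnt-4 (-0.91), unc-45 (-0.91) and unc-95 (-0.82). The unequal level of the deposited arrays makes those values by construction. No paired analysis was possible because each group has 1 array and the labels give no replicate numbers, and no array could be left out. Signals near the floor limit lam-1, lam-2 and 174785_at of unc-52, and the single-gene probe sets of lam-3 and cle-1 are too dim to give a ratio.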

Other observations

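A further pair of probe sets was listed for basement membrane genes under 2 gene identifiers that share a symbol and was therefore left out above. Probe set 188401_s_at, listed under both identifiers as cle-1, had a signal of 198 in control worms and 114 with a-SWCNT, 1.74-fold lower (-0.80), and is the only probe set for this gene above the floor on either array. It is higher-numbered and carries a letter, and 4.87% of probe sets of its type had a ratio as low. Probe set 194141_at, listed for unc-52, was below the floor with 51.9 and 29.8. With both included, 8 of 9 measured genes were below 0, at a median of -0.34.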
